A study of Arabidopsis thaliana with 3 samples.

Results

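The DNA described here is the set of SPL10 binding sites that lay between annotated genes and close to a protein-coding gene in Arabidopsis thaliana. They were chosen by position: a peak called in replicate 1 had to overlap a replicate 2 peak by at least 50% of the length of each, and the mean of both summits had to lie outside every annotated gene and at most 1000 bp from the nearest end of a coding gene. Of 16697 shared nuclear peaks, 3693 met this rule, or 22.1% (Wilson 95% interval 21.5% to 22.8%). The study used DAP-seq on leaf material of the ecotype Col-0 and deposited 3 samples, 2 SPL10 precipitations and 1 input. The labels give no genotype, age or treatment other than precipitation or input. Their protocol describes formaldehyde fixation and sonication of chromatin, whereas DAP-seq in its usual form offers naked genomic DNA to a protein made outside the plant, and the labels do not state where the SPL10 protein came from. The series title links SPL10 to leaf curvature and to transcription of REVOLUTA.

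SPL10 belongs to the SQUAMOSA promoter binding protein-like family, whose SBP domain folds around zinc and contacts DNA with a GTAC core. Many SPL transcripts, that of SPL10 among them, are cut by the microRNA miR156, and the family is known for timing the change from juvenile to adult leaves and the passage to flowering. In a compact plant genome the DNA between genes holds promoters and transcript ends, and a gap may serve the genes on both of its sides. The gene table used here carries no strand, so a summit could be placed at the lower- or higher-coordinate end of a gene but not before its start or behind its end. No sequence was used, and none is shown.

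The input library held 19553456 read pairs. Replicate 1 listed 21500 nuclear peaks and replicate 2 listed 21363. The unit of strength is the authors' fold enrichment at the summit over the background of the peak caller, and the mean fold of a peak is the geometric mean of both replicates. Tags, the sequenced fragments counted at a summit, were recovered from the fold and the p-value of each peak, and the median summit of these sites carried 57 tags in replicate 1 and 54 in replicate 2. Intervals given for folds are exact Poisson intervals of the tags at the 95% level and cover counting error only. None is given for summits with over 198 tags, since no summit in either list held more than 396.

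These sites lay throughout the first 1000 bp outside coding genes, and their number fell with distance, from 587 in the first 100 bp to 216 at 900 to 1000 bp. The median distance of a summit from the nearest coding-gene end was 352 bp (order-statistic 95% interval 340.5 to 366.5), and the middle 50% lay between 158 and 617 bp. Within 250 bp lay 1389 summits (37.6%) and within 500 bp 2404 (65.1%). The amount of DNA fell with distance too, because every gap has bases close to a gene and only long gaps have bases far from one. Gene-free DNA within 100 bp of a coding gene came to 4.12 Mb, and that at 900 to 1000 bp to 1.21 Mb. Per Mb, the summits were not denser next to the genes, as given below.

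Set against the gene-free DNA at each distance, the density of summits was lowest next to the genes among the bins of 100 bp up to 2000 bp. It was 142.5 summits per Mb (exact Poisson interval 131.2 to 154.5) in the first 100 bp and 160.7 (147.4 to 174.8) in the next 100 bp. It then reached 174 (159.1 to 189.9) at 200 to 300 bp and stayed between 162.9 and 178.2 in each bin of 100 bp up to 1000 bp. The interval of the first bin does not overlap those at 200 to 300 and at 900 to 1000 bp, while those of all bins beyond 100 bp overlap one another. Beyond the limit the density did not drop: it was 176.4 (152.3 to 203.2) at 1000 to 1100 bp. Over all DNA within the limit it was 162.8 per Mb (157.6 to 168.1), against 173.3 (164 to 183) between genes at 1000 to 2000 bp, 128.1 (121.9 to 134.5) farther out and 131.8 (129 to 134.6) inside coding genes. Stretches to which no read can be assigned were not taken out of the DNA, and their part in these densities was not tested. Peaks of a library are not replicates, so no test was run between locations. Intervals of peak counts, shares and medians treat peaks as independent, so whether they overlap is a description only.

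**Figure D1:**
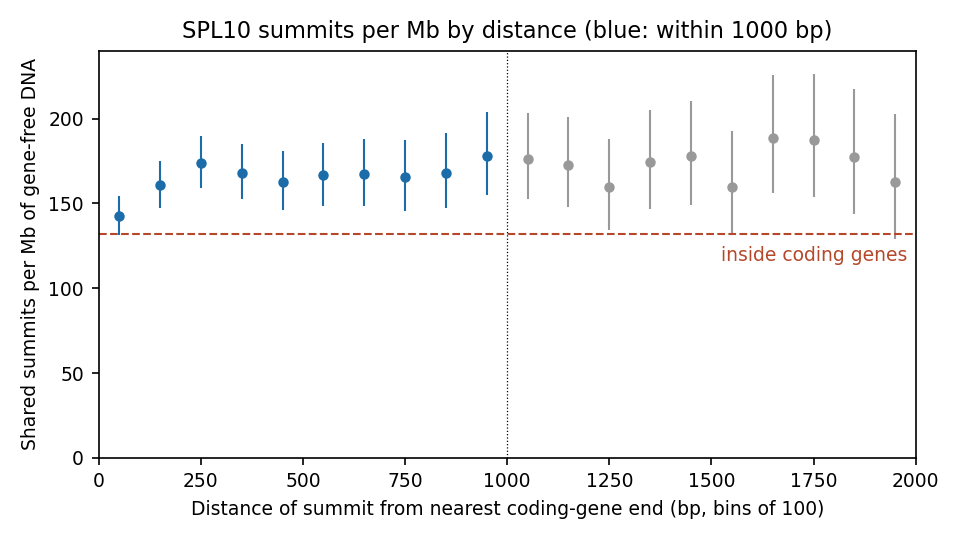
Shared SPL10 summits per Mb of gene-free DNA (y axis) by distance from the nearest coding-gene end in bins of 100 bp (x axis), with exact Poisson 95% intervals; the dashed line is the density inside coding genes, 131.8 per Mb. Of the bins shown, the one next to the gene is lowest, at 142.5 per Mb, and the bins from 200 bp on show no step at the 1000 bp limit.

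The summits were split evenly between gene ends. The lower-coordinate end was nearest for 1874 (50.7%) and the higher-coordinate end for 1819 (49.3%), with 165.1 (157.7 to 172.8) and 160.5 (153.2 to 168) summits per Mb. By chromosome the sites numbered 971, 577, 717, 575 and 853 on chromosomes 1 to 5. The density was 152.7 per Mb (140.5 to 165.7) on chromosome 2 and between 161.5 and 166.1 on the other 4, and the intervals of all 5 overlap.

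Many sites had more than 1 candidate gene. A coding gene lay within 1000 bp on both sides of 1047 summits, or 28.4% (26.9% to 29.8%), and for 232 (6.28%) the distances to both genes differed by under 100 bp. The nearest gene depended little on the replicate. Taken from either replicate's own summit it was the same gene for 3574 sites (96.8%). The interval of the peak reached into a coding gene in both replicates at 956 sites (25.9%) and in neither at 2565 (69.5%).

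Gaps between genes that held a site were long. Of 28068 gaps with DNA within 1000 bp of a coding gene, 3470 (12.4%) held a site, with a median length of 1731 bp against 696 bp for all of these gaps. Length alone offers more DNA, so the density is the fairer measure. It was 133.5 per Mb (109.5 to 161.1) in gaps of up to 250 bp, 147.6 (128.9 to 168.3) in gaps of 251 to 500 bp and 138 (126.6 to 150.1) in gaps of 501 to 1000 bp. It was 168.7 (159.3 to 178.5) in gaps of 1001 to 2000 bp, 170.3 (160.3 to 180.8) in those of 2001 to 4000 bp and 181.4 (166.3 to 197.5) in longer ones. As a description, the intervals of the 3 long classes lie above that of the 501 to 1000 bp class but overlap that of the 251 to 500 bp class. Gaps with a coding gene on both sides held 2762 sites (74.8%) at 166.7 per Mb (160.6 to 173.1), and gaps with a coding gene on 1 side and another kind of gene on the other held 907 (24.6%) at 152.8 per Mb (143 to 163.1).

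**Figure D2:**
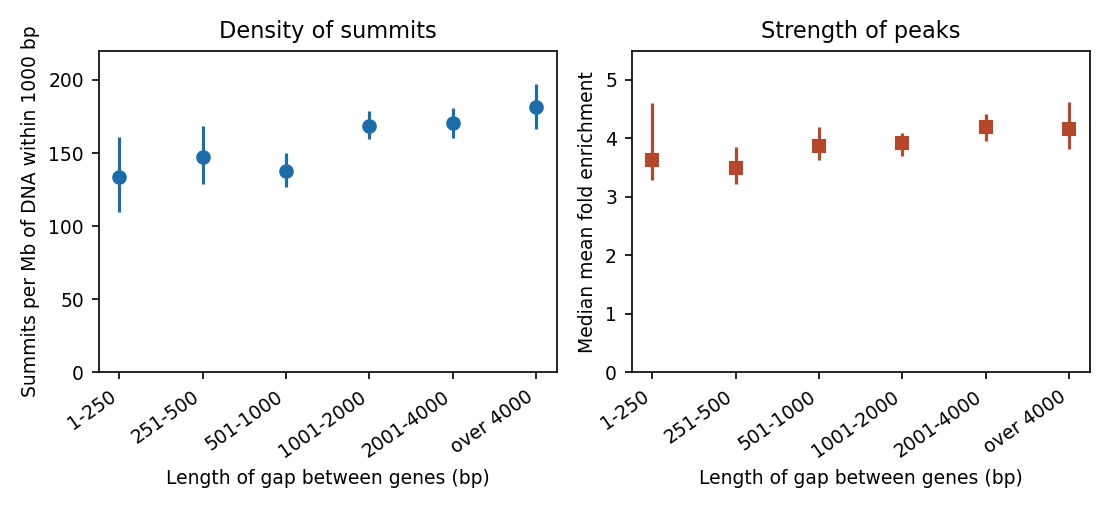
Left, density of summits per Mb of gene-free DNA within 1000 bp of a coding gene; right, median mean fold enrichment; both by length of the gap between annotated genes (x axis, bp), with 95% intervals (exact Poisson on the left, order statistics on the right). Density was 138 per Mb in gaps of 501 to 1000 bp and 168.7 or more in gaps above 1000 bp.

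In strength the sites covered nearly the whole range of the peak lists. The median fold was 3.98 in replicate 1 and 4.01 in replicate 2, and the median of the mean fold was 3.99 (3.87 to 4.1). The weakest 10% lay at or below 2.3-fold and the strongest 10% at or above 10.9-fold. The extremes were 1.37-fold and 26.8-fold. At least 10-fold was reached by 440 sites (11.9%) and at least 20-fold by 31 (0.839%). At 160 sites (4.33%) the q-value was above 0.05 in 1 or both replicates.

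The median mean fold was 3.58 (3.53 to 3.63) for peaks inside coding genes, 4.13 (4.0 to 4.39) for those between genes at 1000 to 2000 bp and 4.1 (3.91 to 4.24) for those farther out. The shares of at least 10-fold were 7.84%, 13.6% and 13.2% in the same order. Fold is a ratio to the local background, which also differed by location: both replicates had the genome-wide background of 10.2 tags at 73.1% of the sites near coding genes and at 44.8% of the peaks inside them, where it was raised more often. The median tag numbers were closer, at 57 and 54 near genes and 55 and 51 inside them. What part the background has in the fold was not tested.

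**Figure D3:**
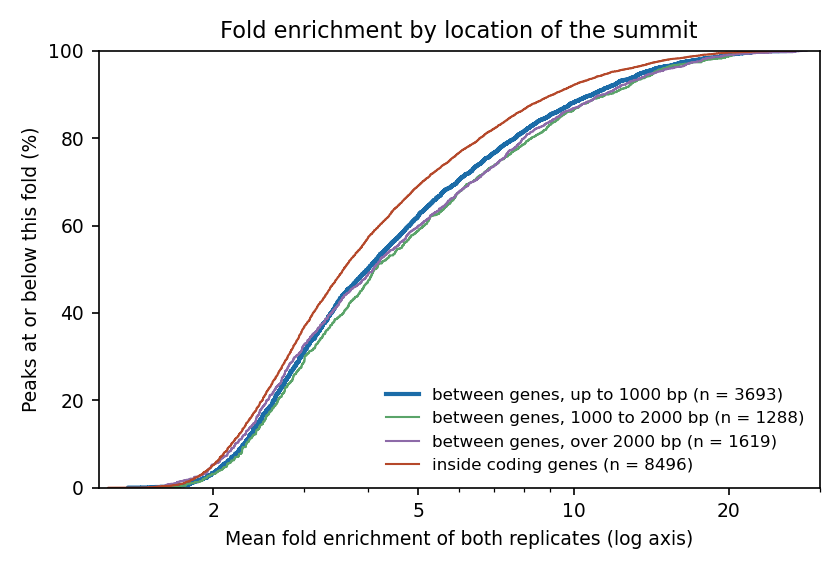
Cumulative share of shared peaks (y axis, %) at or below each mean fold enrichment (x axis, log scale) for 4 locations of the summit. The curve of the 3693 sites between genes within 1000 bp lies to the right of that of the 8496 peaks inside coding genes and near those of the more distant peaks; the medians are 3.99, 3.58, 4.13 and 4.1.

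By strength, the share of these sites among shared peaks was 17.4% in the weakest decile of shared peaks by mean fold, between 21.03% and 23.6% in the deciles between, and 26.8% in the strongest. Of the 500 strongest shared peaks 138 were near coding genes (27.6%, Wilson interval 23.9% to 31.7%), and of the 100 strongest 28 (20.1% to 37.5%). Among the sites themselves the rank of fold was only weakly related to distance, though the last 100 bp had the highest median. The median mean fold was 3.85 (3.56 to 4.14) in the first 100 bp and 4.61 (4.18 to 5.02) at 900 to 1000 bp, and these intervals do not overlap. Values between ran from 3.70 to 4.32. Spearman's rho of fold with distance over the 3693 sites was 0.0421, given as a description since they share libraries. By gap length the medians ran from 3.49-fold (3.22 to 3.85) in gaps of 251 to 500 bp to 4.2-fold (3.95 to 4.42) in gaps of 2001 to 4000 bp. These intervals do not overlap either.

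At these sites, which had to match in both lists, the replicates gave nearly the same values. Their log2 folds over the sites had a Pearson's r of 0.966, which describes peaks of shared libraries and is not a test. The median absolute log2 ratio between replicates was 0.14, and 90% of sites were within 0.37. The summits lay a median of 13 bp apart. The matching rule builds in part of this closeness, since it limits the gap between summits and leaves out unmatched peaks. Between genes within 1000 bp of a coding gene, 992 peaks of replicate 1 and 967 of replicate 2 were unmatched. An exact binomial test of the tag split, adjusted over all 16697 shared peaks by Benjamini-Hochberg, called 1 of them (0.00599%) and none of the 3693 sites near coding genes, of which 44 (1.19%) had an unadjusted p under 0.05. The variance of the split at these sites was 0.633 times the binomial value. The tags were thus less spread than the binomial test and the Poisson intervals assume, and the reason was not tested. With such tags the test calls few peaks, so the lack of calls does not show that the replicates were equal. The replicates were counted as 1 sample. This is a cautious choice, because each replicate was read at its own summit and a peak missing from the other list does not enter the split. Both values are given throughout and no standard deviation is. The labels do not say whether separate plants were used.

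The 3 sites with the widest gap between replicates were weak. The site 842.5 bp off ATXR6 (AT5G24330), a histone H3 methyltransferase gene, had 3.41-fold in replicate 1 (interval 2.53 to 4.51) against 1.90-fold in replicate 2 (1.25 to 2.78). The site 49.5 bp off AT3G29790 had 3.65-fold (2.76 to 4.73) and 2.05-fold (1.39 to 2.93), and the site 494.5 bp off AT3G16960 had 1.58-fold (1.01 to 2.36) and 2.73-fold (1.93 to 3.76). The counting intervals of each pair overlap.

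**Figure D4:**
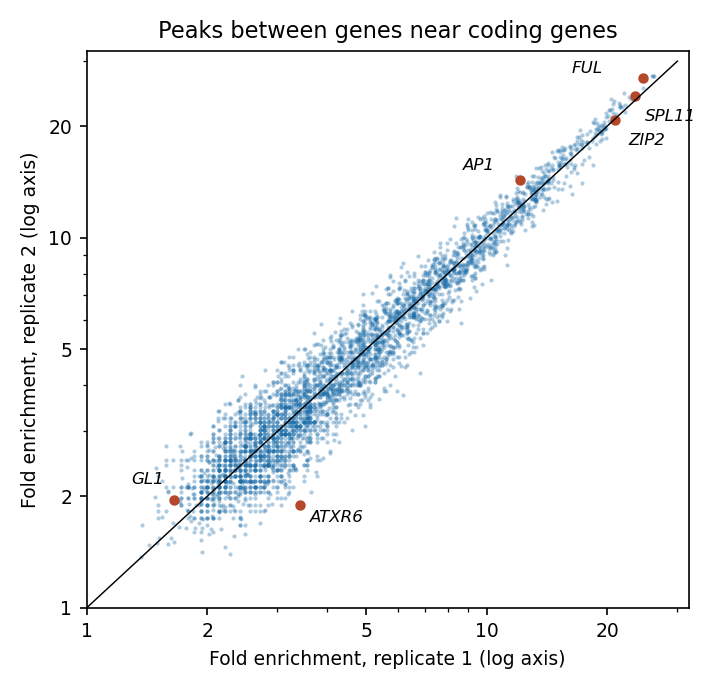
Fold enrichment of the 3693 sites in replicate 1 (x axis) and replicate 2 (y axis), both log scales, with the line of equality; 6 named sites are marked. Points scatter most at low fold, where ATXR6 stands at 3.41 and 1.90, and lie close to the line above 10-fold.

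The strongest sites stood near genes of very different kinds. The first, on chromosome 3 at 4254051 to 4254644 in replicate 1 (TAIR10, as all positions here), had 26.3-fold and 27.3-fold (385 and 376 tags). It stood 59.5 bp beyond the higher-coordinate end of GIP1 (AT3G13222), which encodes a protein that interacts with G-box binding factors. Another coding gene, AT3G13224, lay 388.5 bp away on its other side. The site ranked next, on chromosome 1 at 21471150 to 21472438, had 26.1-fold and 27.4-fold and lay 752 bp before the lower-coordinate end of AT1G58037. The third, on chromosome 4 at 10599551 to 10600036, had 25.8-fold and 27.4-fold and lay 608 bp past AT4G19430 and 902 bp from AT4G19440.

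FUL (AT5G60910), which encodes a MADS-domain factor of flowering and fruit growth, had the fourth site (chromosome 5, bases 24506164 to 24506703), which stood 197.5 bp beyond its higher-coordinate end. It held 347 tags in replicate 1 and 358 in replicate 2, or 24.6-fold and 27.1-fold. A shared summit inside FUL had a mean of 8.62-fold. The next gene on the far side, COB, lay 4685.5 bp off. The site at FAR5 (AT3G44550), a fatty acyl-CoA reductase gene of the family that makes the fatty alcohols of suberin, stood 74 bp before its lower-coordinate end (chromosome 3, bases 16137244 to 16137739) and had 24.6-fold and 25.4-fold.

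SPL11 (AT1G27360), a close relative of SPL10 that miR156 also targets, had a site of 23.5-fold and 24.1-fold (chromosome 1, bases 9500090 to 9500752). Its summit lay 575.5 bp from SPL11 and 677.5 bp from AT1G27350, so both genes were about equally near. SPPL4 (AT1G01650), of the signal peptide peptidase-like family of membrane proteases, had 23.01-fold and 23.8-fold at 68.5 bp. PGSIP7 (AT2G35710), of a family of glycogenin-like proteins, had 22.7-fold and 24.0-fold at 932.5 bp. The other 4 of the strongest 12 were nearest to AT5G59330, AT3G13898, AT4G10140 and AT5G14550, between 170.5 and 341 bp off, with folds of 21.5 to 22.2 in replicate 1 and 22.6 to 24.5 in replicate 2. All 12 summits held between 301 and 385 tags in either replicate, against a highest number of 396, and 206 sites exceeded 198 tags. Whether a ceiling on tags compresses the order at the top was not tested.

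The 3693 sites named 3500 different coding genes as nearest, or 12.8% of the 27444 nuclear coding genes. The share rose with the gene-free DNA that each gene had within 1000 bp and nearer to it than to any other coding gene. It was 2.93% of 9117 genes with 1 to 500 such bases, 12.3% of 7240 with 501 to 1000, 18.95% of 6279 with 1001 to 1500 and 28.1% of 4090 with 1501 to 2000. The 718 genes with 0 such bases could not be nearest to a site. Counts for gene groups are therefore given with the median of this free DNA, which was 796 bp over all coding genes. Beside each stands the class share, the share above for the class that holds the group's median. It allows for the amount of DNA only roughly. No test was run on a group, because the groups were written with earlier results of these data known.

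Genes nearest to a site and other genes were close in how many held a peak inside them. Of the 3500 nearest genes 929 (26.5%) also held a shared summit inside, against 6374 of the 23944 other coding genes (26.6%), with median gene lengths of 2088 and 2077 bp. Of the 434 genes nearest to a site of at least 10-fold, 99 (22.8%) held one. Where both were present, the site outside was the stronger in 478 of 929 genes (51.5%). Among named genes with a site within the limit, weaker summits lay inside GIP1 (2.45-fold), SPPL4 (3.08), AT5G14550 (3.91) and SPL7 (2.66). The same held for GA2OX2 (3.12), TOE1 (1.80) and AGO1 (2.68), and for FUL, AP1 and ATHB-8, whose values are given with their sites. AGL42 went the other way, with up to 6.11-fold inside the gene against a mean of 5.58-fold at its site.

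Among 16 genes of flowering and meristem identity, 7 were the nearest gene of a site (43.8%, beside 12.8% of all coding genes). Their list had a median free DNA of 1284 bp and a class share of 18.95%. The median of each such gene's strongest site was 5.28-fold, against 4.07-fold over all 3500 genes. Besides FUL, the floral meristem gene AP1 (AT1G69120) had a site of 12.1-fold (10.4 to 14.0) and 14.3-fold (12.4 to 16.5), 158.5 bp past its higher-coordinate end, and a weaker summit of 3.64-fold inside the gene. AGL42 (AT5G62165), a MADS-box relative of the floral integrator SOC1, had 5.96-fold (4.77 to 7.37) and 5.22-fold (4.07 to 6.59) at 389.5 bp and summits inside the gene of up to 6.11-fold. The other genes with a site were AGL79, FD, SVP and TSF, the weakest at 1.81-fold. SOC1, CAL, LFY, AGL71, AGL72, FT, TFL1, AGL24 and FLC were not the nearest gene of any site.

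In the SPL family 5 of 17 genes were nearest to a site (29.4%, median free DNA 1000 bp, class share 12.3%, median 6.07-fold). SPL5 and SPL15 had 0 free bases and could not be among them. The family's median free DNA lies on the upper edge of its class, and the next class has a share of 18.95%. SPL16 (AT1G76580) had 16.5-fold and 17.8-fold (chromosome 1, bases 28732873 to 28733589), 973 bp before its lower-coordinate end and just inside the distance limit. SPL7 (AT5G18830), the regulator of the copper deficiency response, had 6.29-fold (5.10 to 7.67) and 5.86-fold (4.72 to 7.19) at 935.5 bp. The remaining 2 were SPL8 and SPL9. SPL10 itself was not the nearest gene of a site.

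Of 6 AP2-like genes targeted by miR172, 2 had a site (33.3%, median free DNA 1011.5 bp, class share 18.95%). The floral repressor SMZ (AT3G54990) had 12.3-fold (10.6 to 14.3) and 12.2-fold (10.4 to 14.3) at 286.5 bp, with no other coding gene within 4651.5 bp on the far side. TOE1 (AT2G28550), another repressor of flowering, had 4.76-fold (3.70 to 6.03) and 5.29-fold (4.14 to 6.68) at 243.5 bp.

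Of 14 coding genes of copper supply and copper-dependent enzymes, 3 had a site (21.4%, median free DNA 1032.5 bp, class share 18.95%, median 10.3-fold). ZIP2 (AT5G59520), a metal transporter gene, had sites at both ends. The stronger had 20.96-fold and 20.8-fold and stood 5.5 bp beyond its higher-coordinate end (chromosome 5, bases 23992702 to 23993142). The other, 176.5 bp before its lower-coordinate end and 212.5 bp from RTFL5, had 2.35-fold (1.64 to 3.29) and 3.11-fold (2.24 to 4.2). YSL2 (AT5G24380), of a family that carries metals bound to nicotianamine, had 9.78-fold (8.23 to 11.5) and 10.9-fold (9.18 to 12.8) at 106.5 bp. The third gene was the laccase gene LAC3, at 2.55-fold.

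Among 24 genes of leaf polarity and their small-RNA machinery, 7 had a site (29.2%, median free DNA 1293.5 bp, class share 18.95%). Their median of 3.37-fold was below that of all 3500 genes. ZPR4 had 0 free bases and could not have a site. ATHB-8 (AT4G32880), an HD-ZIP III gene of vascular development, had 13.1-fold (11.3 to 15.1) and 13.4-fold (11.5 to 15.6) at 959 bp, and a summit of 3.44-fold inside the gene. AGO1 (AT1G48410), the main effector of plant microRNAs, had 7.16-fold (5.85 to 8.69) and 7.25-fold (5.89 to 8.85) at 553 bp. AS2 (AT1G65620), which acts in upper-side leaf identity, had 4.6-fold (3.66 to 5.70) and 4.59-fold (3.63 to 5.74) at 638 bp. The others were ATHB-15, ZPR1, AGO7 and AGO10, between 2.24-fold and 3.37-fold. REV, the gene named in the series title, was not the nearest gene of any site, nor were PHB, PHV or any of the KAN and YABBY genes of the list. In every list, a gene without a site may still have SPL10 peaks that the rule leaves out. Such peaks lie inside annotated genes, over 1000 bp away or nearer to a neighbour, or were called in a single replicate.

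Of 15 gibberellin genes, 4 had a site (26.7%, median free DNA 1549 bp, class share 28.1%, median 5.74-fold). RGA (AT2G01570), a DELLA repressor of the hormone response, had 11.8-fold in each replicate (10.05 to 13.7 and 10.01 to 13.8) at 835.5 bp. GA20OX3 (AT5G07200), a biosynthetic oxidase, had 6.53-fold (5.27 to 7.99) and 5.82-fold (4.61 to 7.26) at 870.5 bp. GA2OX2 (AT1G30040), an oxidase that inactivates gibberellins, had 5.82-fold (4.64 to 7.21) and 4.84-fold (3.74 to 6.17) at 251 bp. The fourth was the DELLA gene RGL2, at 2.95-fold.

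The trichome and pigment genes had 3 of 15 with a site (20%, median free DNA 1098 bp, class share 18.95%), and their median was 2.16-fold. TCL2 (AT2G30424), a single-repeat MYB inhibitor of trichomes, had 5.11-fold (4.01 to 6.43) and 6.12-fold (4.87 to 7.60) at 800.5 bp. PAP1, an activator of anthocyanin synthesis, had 2.28-fold (1.58 to 3.20) and 2.05-fold (1.37 to 2.96). GL1, an activator of trichome formation, had 1.66-fold (1.12 to 2.36) and 1.96-fold (1.34 to 2.78), and its −log10 q in replicate 1 was 0.791, weaker than a q of 0.05.

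Of 11 CIN-type TCP and CUC genes of leaf shape, 2 had a site (18.2%, median free DNA 1638 bp, class share 28.1%). TCP10 (AT2G31070) had 7.38-fold (6.04 to 8.93) and 6.18-fold (5.01 to 7.55) at 535 bp, and TCP5 (AT5G60970) had 5.40-fold (4.26 to 6.74) and 5.6-fold (4.41 to 7.01) at 288 bp. Of 16 light-harvesting genes, a comparison list with no stated link to SPL10, 1 had a site (6.25%, class share 12.3%). It was LHCA3 (AT1G61520), an antenna protein gene of photosystem I, with 7.45-fold (6.10 to 9.0) and 7.25-fold (5.89 to 8.85) at 176 bp. These genes had less free DNA than the other groups, with a median of 534 bp.

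**Figure D5:**
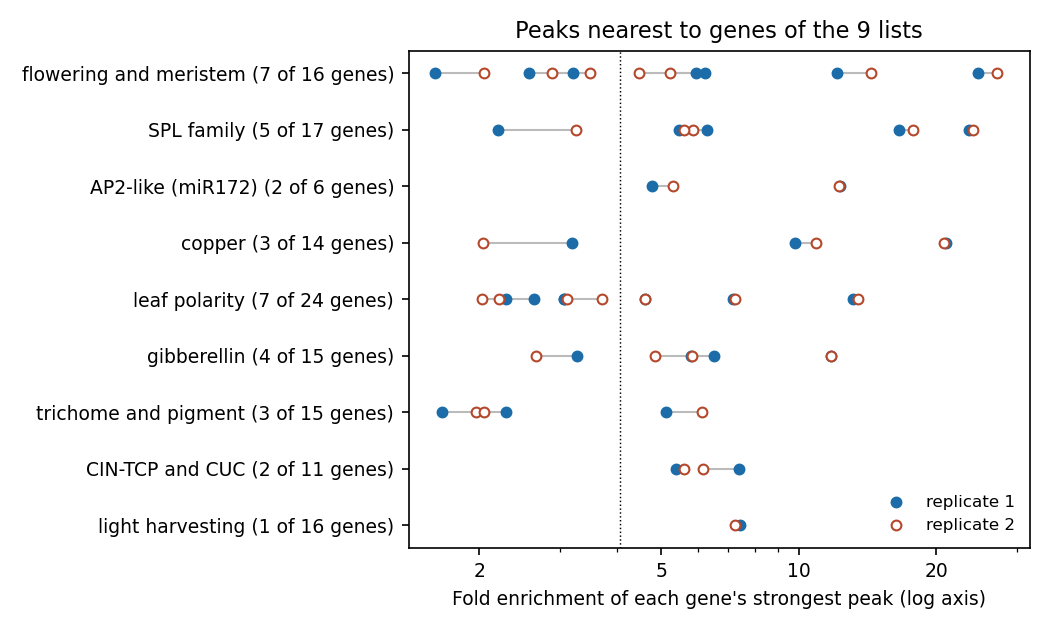
Fold enrichment (x axis, log scale) of the strongest site of each gene that was the nearest coding gene of a site, by gene list, in replicate 1 (filled) and replicate 2 (open), joined by a line. The dotted line is the median strongest mean fold over all 3500 such genes, 4.07; FUL at 24.6 and 27.1 lies farthest right.

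Most genes had a single site. Of the 3500 nearest genes 3310 had 1, 187 had 2 and 3 had 3, the most found. Of the gaps, 217 held 2 or more sites, and in these gaps lay 440 sites (11.9%). Neighbouring sites of the same gap were a median of 1074 bp apart, with the closest pair at 449 bp.

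The 3 genes with 3 sites had them at both ends. HB-3 (AT5G15150), a homeobox-leucine zipper gene, had 9.36-fold (7.84 to 11.1) and 10.05-fold (8.42 to 11.9) at 944 bp before its lower-coordinate end and 3.13-fold (2.29 to 4.19) and 2.96-fold (2.12 to 4.02) at 20 bp. Past its higher-coordinate end it had 6.39-fold (5.15 to 7.84) and 6.12-fold (4.87 to 7.60) at 567.5 bp. SHN1 (AT1G15360), an ERF-type activator of cuticular wax, had weak sites only: 2.34-fold and 2.66-fold at 553 bp, 3.70-fold and 4.01-fold at 62.5 bp, and 1.97-fold and 2.09-fold at 43 bp past the other end. AT5G38310 had 4.76-fold and 3.79-fold at 594 bp, 6.24-fold and 4.77-fold at 0.5 bp, and 2.99-fold and 2.73-fold at 841.5 bp past the other end.

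The sites just inside and just outside the distance limit varied widely in fold, and 3 on each side are too few to compare the sides. CRF2 (AT4G23750), a cytokinin response factor gene, IQD12 and AT5G38000 each had a summit 999.5 bp off, with 7.09-fold and 7.18-fold, 5.18-fold and 4.54-fold, and 11.2-fold and 9.36-fold. Just outside, AGL21 had a summit 1000.5 bp off with 2.28-fold and 3.26-fold, AT3G03680 had one at 1001 bp with 9.7-fold and 8.26-fold, and PAS1 had one at 1001.5 bp with 3.27-fold and 2.73-fold.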

How the data were processed

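Each precipitated sample had its own deposited peak list on TAIR10, so peaks were not called on pooled samples. Peak names in the deposited lists point to MACS. The labels do not state the caller's version, threshold or control. The submitters' processing notes name cutadapt. The lists as deposited give a fold ratio at the summit, its −log10 p, its −log10 q and a score within 1 of 10 times the −log10 q. The input log gave only its depth. Mitochondrial peaks (74 and 76) were left out.

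Tags were recovered by finding the whole number that gives both the deposited fold and −log10 p. All peaks were matched within a relative tolerance of 0.0001 on the −log10 p. The scaling put the replicates at 1.26 and 1.18 times the depth of the background library. The method, the overlap and the location rule were tested on simulated data.

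Genes came from a RefSeq table of TAIR10.1 (37899 nuclear genes, 27444 coding), used for names and distances only. It has no strand, and no promoter sequence was used, so the planned shares of summits at gene starts and of starts with a GTAC core were not computed. All genes of the 9 lists were found by locus tag. The sites and lists were chosen with earlier results of these data known. Named sites were the 12 strongest, at most 3 per list, the 3 on each side of the distance limit, those of the 3 genes with most sites and the 3 with the widest replicate gap. Python 3.11.15, pandas 2.3.3 and scipy 1.17.1 were used.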

Additional observations from a re-analysis of the deposited data

Results flagged for a closer look

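Signal appeared in peaks that the comparisons leave out. Between genes and within 1000 bp of a coding gene, 992 peaks of replicate 1 and 967 of replicate 2 had no match in the other list at 50% reciprocal overlap. Their median fold was 2.13 in each replicate, with a median of 29 and 28 tags, against 3.34-fold and 3.39-fold over all peaks of this location in each list. Of these, 208 and 209 touched a peak of the other list without reaching the overlap, and 32 and 39 had at least 5-fold, up to 14.2-fold and 13.1-fold.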

How the results depend on the processing

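The number of sites was within 1.5 times the reported 3693 with an overlap of 25% or 80% and with other annotated genes ignored, and was 4677 and 4689 with the peaks of 1 replicate alone. It was 1950 with −log10 q of at least 10 in both replicates, 1222 among the 5000 shared peaks of highest fold and 2404 with a limit of 500 bp, which keep fewer peaks by construction. The share of summits, 22.1%, was 23.0%, 24.4% and 14.4% under those 3 settings, 23.5% when only coding genes counted as genes, and 21.8% to 21.9% with 1 replicate. The median mean fold, 3.99, was 6.48, 8.46 and 3.85 under the same 3 settings and 4.47 with 80% overlap. With 1 replicate it was 3.34 to 3.39, where unshared peaks are included. The median distance, 352 bp, stayed between 345 and 364.5 bp except with the limit of 500 bp, where it was 213 bp. The tag split differed at 1 shared peak, at 1 with −log10 q of at least 10 and at 0 with 80% overlap (exact binomial test, Benjamini-Hochberg), where 140 peaks had an unadjusted p under 0.05. The shares at gene starts and with GTAC, and their alternatives, were not run without strand or sequence. No paired analysis was possible because all precipitations form 1 group and the input has no peak list. At the median of 57 and 54 tags, counting intervals limit what can be said of a single site.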
